A study of Mus musculus with 21 samples.

Results

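Histone modifiers and chromatin remodelers are described here as a set of 74 genes among the 16318 genes of the deposited count table. They were chosen by gene symbol: the Chd1 to Chd9, Kmt2 and Kmt5, Kdm1 to Kdm8, Setd1 to Setd8, Arid1 to Arid5, Smarca to Smarce and Ncoa1 to Ncoa7 families, without Kdm5c, Kdm5d and Kdm6a, together with Crebbp, Ep300, Ep400 and Prr12. The table holds no symbol beginning with Kmt5, and it lists the enzyme also known as Kmt5a as Setd8. Whole-brain RNA had been sequenced from 21 SAMP8 mice, a naturally occurring senescence-accelerated strain, with 1 library per mouse. The treated mice (3 female and 6 male) had received HsTX1[R14A], a peptide that blocks the potassium channel Kv1.3, by subcutaneous injection at 1 mg/kg on alternate days for 8 weeks, from 4 to 6 months of age. The control mice (6 female and 6 male) had been injected with phosphate-buffered saline (PBS) on the same schedule. All brains had been perfused, no untreated mice and no mice of another strain were among the samples analysed here, and the comparison asks what the peptide does to brain expression in this strain.

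DNA in the nucleus is wound around histones, and the genes described here encode proteins that move these spools or mark them chemically. ATP-driven remodelers (the CHD, SWI/SNF and ISWI proteins) slide or evict nucleosomes, methyltransferases and demethylases write and erase methyl marks on histone lysines, and acetyltransferases and their coactivators open promoters and enhancers. In the adult brain these proteins take part in activity-dependent transcription and memory, and loss of a single copy of many of them causes neurodevelopmental disorders.

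All 74 members passed the low-count filter and were tested. Total counts per library ran from 14917174 to 47613792 with a median of 24816505, and the member with the fewest counts, Arid3c, had as few as 3 counts in a mouse, followed by Kdm4d with 10 and Kdm8 with 23. Levels are given as CPM, counts relative to a library total that TMM has adjusted for differences in composition between libraries. Differences between treatments are log2 fold changes, HsTX1[R14A] over PBS, from edgeR's quasi-likelihood test with sex in the model, given with their standard errors (SE), and a gene was called where its Benjamini-Hochberg adjusted p over the 16303 genes tested (FDR) was at most 0.05. Libraries differed before any test of treatment. In 2 PBS libraries, female 103 and male 90, counts of long transcripts were low, and these libraries held the lowest level of 41 and 13 members, respectively. Library names take 2 forms, one borne by 15 mice (10 PBS, 5 treated) and the other by 6 (2 PBS, 4 treated). In bulk tissue, fewer cells of a type and less RNA per cell cannot be told apart.

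In the brains of HsTX1[R14A]-treated mice, 42 of the 74 chromatin genes were called higher and 2 were called lower, and 30 did not pass the test. Over all genes tested, 15.5% were called higher and 16.1% lower (31.6% in either direction). An unadjusted p under 0.05 was reached by 53 members and by 46.4% of all genes. With limma/voom 43 members and 31.9% of all genes were called, with DESeq2 48 members and 37.7%, and without sex in the edgeR model 27 members and 18.3%. The median log2 fold change of the members was 0.37, against -0.01 over all genes, and 60 members had a value above 0. The rises were modest: 2 members, Prr12 and Setd1b, exceeded a 2-fold difference, and the smallest rise that was called was 0.32 on the log2 scale. Values of the groups overlapped for each of the 74 members, as they did for all but 3 of the genes tested (0.0184%). The members made up 0.299% to 0.612% of all counts in PBS libraries and 0.414% to 0.688% in HsTX1[R14A] libraries.

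**Figure D1:**
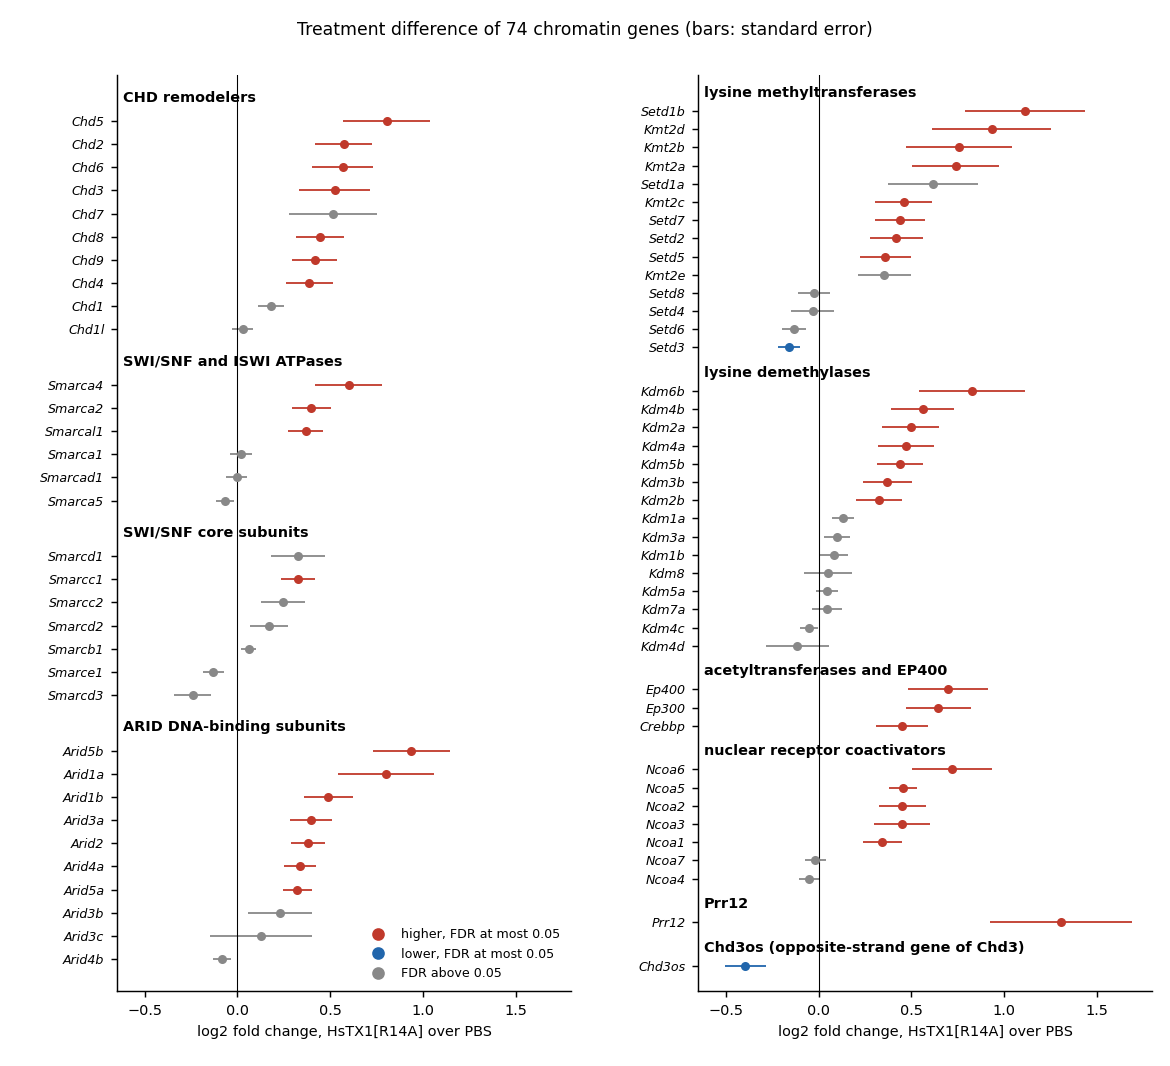
Treatment difference (log2, HsTX1[R14A] over PBS) for each of the 74 genes, grouped by role and ordered by size, with bars for the standard error. Red points are genes called higher and blue points genes called lower at an FDR of at most 0.05, and grey points did not pass. The 42 red points lie between 0.32 and 1.31, and the 2 blue points are Setd3 at -0.16 and Chd3os at -0.40.

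The groups by role differed in how many of their genes were called. All 3 of Crebbp, Ep300 and Ep400 rose, as did 5 of the 6 COMPASS methyltransferases (Kmt2a, Kmt2b, Kmt2c, Kmt2d, Setd1a and Setd1b), 7 of 10 CHD remodelers, 7 of 10 ARID proteins and 5 of 7 nuclear receptor coactivators. Of the lysine demethylases, 7 of 15 rose. Among the ATPases of the SWI/SNF and ISWI families 3 of 6 rose, among the SWI/SNF core subunits 1 of 7, and among the 8 methyltransferases outside COMPASS 3 rose and 1 fell. The median log2 fold change was 0.75 for the COMPASS enzymes, 0.65 for Crebbp, Ep300 and Ep400, 0.48 for the CHD remodelers, 0.45 for the coactivators and 0.36 for the ARID proteins. It was 0.19 for the ATPases, 0.17 for the core subunits, 0.16 for the other methyltransferases and 0.13 for the demethylases. Differences between roles were not tested.

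Promoter sequence is shown because 42 members rose in the same comparison. RefSeq (GRCm38.p6) windows from 250 bases before to 50 bases after a start site were matched by symbol to 55 of the 74 members, which have 73 windows in all. The median window held 27 CpG dinucleotides, against 7 over the 32851 windows of all 27025 genes with a window. These include genes outside the 16303 tested here, and the members were not compared with windows of tested genes alone. A GC box, spelled GGGCGG and searched on both strands, was found in 72.6% of the members' windows and in 35.66% of all windows. It stood in 80.56% of the 36 windows of members called higher and in 64.86% of the 37 windows of the other members. The ETS core CGGAAG was found in 24.66% of the members' windows and 16.85% of all, CCAAT in 32.88% and 37.41%, and TATAAA in 5.48% and 13.62%. By call, in the same order of windows called higher and others, the shares were 13.89% and 35.14% for the ETS core, 27.78% and 37.84% for CCAAT, and 5.56% and 5.41% for TATAAA, and no difference between these shares was tested. These are matches of letters, counted per window, and genes with several start sites are counted at each. Stretches are printed only where 30 bases near the window's end were found in a GENCODE transcript of the gene, which held for 50 members. Prr12 and Arid5b, which rose more than the printed genes, fell outside this rule. Setd1b, which also rose more than the printed genes, and Kdm6b, which rose by 0.83, had no window. The window of Prr12 holds 2 GC boxes, and that of Arid5b holds 0, with 7 CpG dinucleotides and a TATAAA. The 100 bases before the start are printed here, 5′ to 3′ on the gene's own strand, with GC boxes in capitals, for 3 members that rose by 0.80 to 0.93 on the log2 scale (Kmt2d at chr15:98871206-98871305 on the minus strand, Chd5 at chr4:152338551-152338650 on the plus strand and Arid1a at chr4:133756770-133756869 on the minus strand). Beside them stand Setd3, which fell (chr12:108179285-108179384, minus strand), and Kdm7a, a long gene that was not called and whose window holds the most CpG dinucleotides of all members, 65 (chr6:39206774-39206873, minus strand).
Kmt2d: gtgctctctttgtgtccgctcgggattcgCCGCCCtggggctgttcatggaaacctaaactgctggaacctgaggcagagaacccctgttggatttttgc
Chd5: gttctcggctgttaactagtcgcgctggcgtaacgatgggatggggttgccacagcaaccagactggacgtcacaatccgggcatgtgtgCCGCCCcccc
Arid1a: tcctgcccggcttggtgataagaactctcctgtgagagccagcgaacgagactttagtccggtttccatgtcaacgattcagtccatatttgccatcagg
Setd3: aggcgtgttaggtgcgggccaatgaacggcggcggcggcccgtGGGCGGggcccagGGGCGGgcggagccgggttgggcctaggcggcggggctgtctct
Kdm7a: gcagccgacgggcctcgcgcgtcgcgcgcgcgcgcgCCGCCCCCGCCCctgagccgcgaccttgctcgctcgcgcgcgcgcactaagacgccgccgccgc
In the Setd3 stretch a further GGGCGG overlaps the last capital box, and the rest of it stands in lower case. GC boxes stood before the starts of genes that rose, fell or were not called. The Arid1a stretch has none. The window it comes from has 1, a second Arid1a window (chr4:133753936-133754235) has 7, and each Setd3 window has 7.

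The COMPASS enzymes place methyl marks on the histone H3 tail at promoters and enhancers of active genes. Setd1b (ENSMUSG00000038384, chr5:123142193-123168629), a methyltransferase of active promoters, ranged from 3.76 to 37.02 CPM with a median of 19.3 in PBS mice and from 10.1 to 53.2 CPM with a median of 48.3 in HsTX1[R14A] mice. In 6 of the 9 treated mice it lay above every PBS mouse, while the other 3 lay within the PBS range, and it rose by 1.11 ± 0.32 (log2 ± SE, FDR = 0.0214). Kmt2d (ENSMUSG00000048154, chr15:98831669-98871204), which marks enhancers and has the longest transcript of the set, ranged from 13.7 to 120.1 CPM with a median of 58.4 in PBS mice. With HsTX1[R14A] it ranged from 27.01 to 169 CPM with a median of 118. In 6 of 9 treated mice Kmt2d lay above the PBS median, and it rose by 0.93 ± 0.32 (FDR = 0.0341). The call of Kmt2d was lost when any 1 of 9 mice was left out, with an FDR of 0.0136 to 0.0685 over the 21 fits and the highest without HsTX1[R14A] female 98, whereas that of Setd1b was kept in all 21.

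Kmt2b and Kmt2a, the mammalian relatives of fly trithorax, moved in the same direction. Kmt2a had a median of 91.1 CPM (range 32.7 to 152) in PBS mice and 167 CPM (range 64.4 to 211) in HsTX1[R14A] mice, and rose by 0.74 ± 0.23 (FDR = 0.0267). Kmt2b had a median of 24.04 CPM (range 5.54 to 43.5) in PBS mice and 42.4 CPM (range 12.3 to 55.9) in HsTX1[R14A] mice, and rose by 0.76 ± 0.28 (FDR = 0.0469). Both groups overlapped widely in each gene, since 3 of the 9 treated mice lay below the PBS median of Kmt2b and 2 below that of Kmt2a. With 1 mouse left out, the FDR ran from 0.0202 to 0.0915 for Kmt2b, which lost its call without any 1 of 12 mice, and from 0.0116 to 0.0543 for Kmt2a, which lost it without any 1 of 4. In both cases the highest value came without HsTX1[R14A] female 98. Kmt2c, the partner of Kmt2d at enhancers, rose by 0.46 ± 0.15 (FDR = 0.0317), and Setd1a, at 0.62 ± 0.24 with an FDR of 0.0549, did not pass.

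Outside COMPASS the methyltransferases were mixed. Setd7, Setd2 and Setd5 rose by 0.44, 0.42 and 0.36 on the log2 scale, of which Setd2 is the enzyme that methylates histone H3 along transcribed gene bodies. Setd7 lay above the PBS median in all 9 treated mice. Setd3 (ENSMUSG00000056770, chr12:108106431-108179314), which methylates a histidine of actin rather than a histone, fell. Its level was 176 CPM (range 150.4 to 211) in PBS mice and 162 CPM (range 138 to 179) in HsTX1[R14A] mice, and 7 of 9 treated mice lay below the PBS median. The change was small, -0.16 ± 0.06 with an FDR of 0.0399, and the call was lost without any 1 of 12 mice (FDR 0.0277 to 0.1002 over the 21 fits, the highest without PBS male 90). Kmt2e (0.35), Setd8 (-0.03), Setd4 (-0.03) and Setd6 (-0.13) did not pass the test. Per kilobase of its longest transcript, Setd3 was the most abundant methyltransferase of the set, with a mean of 55.6 CPM per kb over the 21 mice against 22.6 for Setd7 and 3.79 for Kmt2d.

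**Figure D2:**
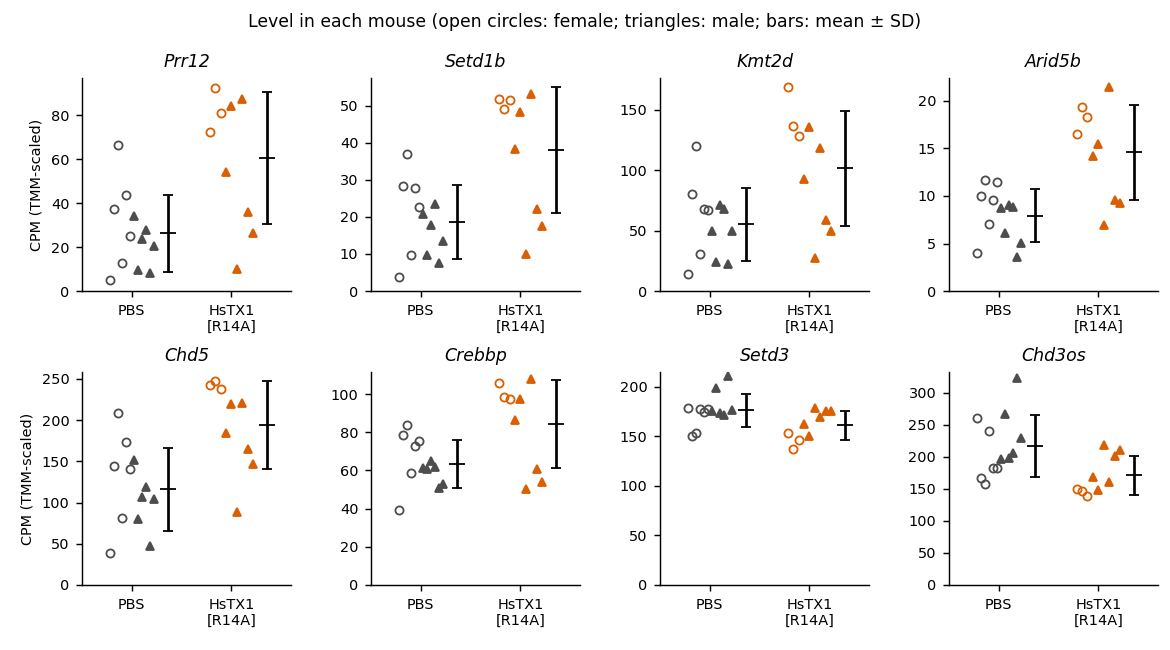
Level of 8 members in each of the 21 mice, in TMM-scaled CPM on axes that start at 0, with grey symbols for PBS, orange for HsTX1[R14A], open circles for females and triangles for males, and the mean ± SD beside each group. In Prr12, Setd1b, Kmt2d, Arid5b, Chd5 and Crebbp 4 to 6 of the 9 treated mice lie above every PBS mouse and the rest lie within the PBS range, and in Setd3 and Chd3os the groups overlap with lower medians in treated mice.

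Apart from Chd1l, the CHD remodelers carry chromodomains that bind histone tails. All 10 genes of this family, Chd1l included, had log2 fold changes above 0 in the model of all 21 mice. Chd5 (ENSMUSG00000005045, chr4:152338651-152390194), a subunit of the NuRD complex found mainly in neurons, ranged from 38.7 to 209 CPM with a median of 113 in PBS mice. In HsTX1[R14A] mice Chd5 ranged from 88.6 to 248 CPM with a median of 219.6. Only 1 treated mouse lay below the PBS median, 5 lay above every PBS mouse, and Chd5 rose by 0.80 ± 0.23 (FDR = 0.0215). Chd3 and Chd4, the widely expressed NuRD ATPases, also rose, by 0.52 ± 0.19 (FDR = 0.0433) and 0.39 ± 0.13 (FDR = 0.0293). Chd3 was the most abundant remodeler of this family per length (62.1 CPM per kb, against 26.01 for Chd4 and 15.8 for Chd5), at 428 CPM (range 159 to 592) in PBS mice and 525.5 CPM (range 375 to 724) in HsTX1[R14A] mice. Its call was lost without any 1 of 10 mice, with an FDR of 0.0265 to 0.0862 and the highest without HsTX1[R14A] female 72.

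Chd2, whose loss causes epilepsy in people, had a median of 36.7 CPM (range 18.6 to 58.1) in PBS mice and 59.5 CPM (range 33.6 to 67.2) in HsTX1[R14A] mice, and rose by 0.57 ± 0.15 (FDR = 0.0185). Its call was kept with each mouse left out, as were those of Chd6 (0.57), Chd8 (0.45), one of the best established autism genes, and Chd9 (0.42). Chd7, the gene of CHARGE syndrome, had a value of 0.52 ± 0.24, but spread widely among treated mice (11.8 to 48.4 CPM) and did not pass (FDR = 0.0934). Chd1 (0.18 ± 0.07, FDR = 0.0574) did not pass either. Chd1l, a remodeler without chromodomains that is recruited to DNA breaks by poly(ADP-ribose), was nearly level, at 7.25 CPM (range 6.83 to 7.96) in PBS mice and 7.46 CPM (range 6.52 to 8.12) in HsTX1[R14A] mice and a difference of 0.03 ± 0.06.

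Chd3os (ENSMUSG00000043419, chr11:69340461-69342641), transcribed from the strand opposite to Chd3, entered the set through its symbol in the table and was the member with the most negative value. GENCODE names this gene Rnf227 and lists it as protein-coding. Its annotated span on the plus strand ends before the end of Chd3 on the minus strand (chr11:69343273-69369406), so the spans do not overlap. Chd3os ranged from 158 to 324 CPM with a median of 202 in PBS mice and from 139.8 to 219 CPM with a median of 161 in HsTX1[R14A] mice. In 7 of 9 treated mice it lay below the PBS median, and it fell by 0.40 ± 0.11 on the log2 scale (FDR = 0.0199). The call was kept with each mouse left out (FDR 0.0101 to 0.04704). It had the highest level per length of the 74 members, 95.1 CPM per kb. Chd3 and Chd3os moved in opposite directions, and whether counting took strand into account is not given in the sources used here, so reads of the pair that run past the annotated ends cannot be told apart.

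SWI/SNF complexes are built around an ATPase, Smarca4 or Smarca2, on a scaffold of core subunits. Both ATPases rose, Smarca4 by 0.60 ± 0.18 (FDR = 0.0237) and Smarca2 by 0.40 ± 0.10 (FDR = 0.0176). Smarca2 stood at 179 CPM (range 130.5 to 246) in PBS mice and 248 CPM (range 176 to 303) in HsTX1[R14A] mice, and 8 of 9 treated mice lay above the PBS median. Smarcal1, a helicase that restarts stalled replication forks, had 34.6 CPM (range 25.5 to 43.6) in PBS mice and 44.9 CPM (range 33.1 to 49.1) in HsTX1[R14A] mice and rose by 0.37 ± 0.09 (FDR = 0.0171). The 3 calls were kept with each mouse left out. The ISWI ATPases Smarca5 (-0.07 ± 0.05) and Smarca1 (0.02 ± 0.06) and the heterochromatin remodeler Smarcad1 (-0.0047 ± 0.06) did not pass. Their transcripts have 4798, 5168 and 6113 bases with a GC content of 39.5%, 41.1% and 40.7% for Smarca1, Smarcad1 and Smarca5, and 5921 and 6376 bases with 51.1% and 55.9% for Smarca2 and Smarca4.

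Of the core subunits, Smarcc1, a scaffold of the complex, rose, at 48.9 CPM (range 33.6 to 57.1) in PBS mice and 59.8 CPM (range 47.8 to 72.6) in HsTX1[R14A] mice and a difference of 0.33 ± 0.09 (FDR = 0.01997). Smarcc2, its paralog and the most abundant core subunit per length (58.4 CPM per kb), had 255 CPM (range 146 to 302) in PBS mice and 296 CPM (range 209 to 399.9) in HsTX1[R14A] mice. Its difference of 0.24 ± 0.12 did not pass (FDR = 0.108). Smarce1, a DNA-binding subunit, had 62.9 CPM (range 54.7 to 71.03) in PBS mice and 58.6 CPM (range 51.2 to 72.3) in HsTX1[R14A] mice, with 8 of 9 treated mice below the PBS median and 1, male 81, above every PBS mouse. Its difference of -0.13 ± 0.06 did not pass (FDR = 0.0815). Smarcd1 (0.33), Smarcd2 (0.17), Smarcb1 (0.06) and Smarcd3 (-0.24) also did not pass, so that 6 of the 7 core subunits were not called. Smarcd1 was not called although its value was as large as that of Smarcc1. The median transcript of the core subunits had 3774 bases, and a difference between them and the ATPases was not tested.

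The ARID proteins bind DNA through a shared domain. Arid5b (ENSMUSG00000019947, chr10:68092520-68278740), which guides a histone demethylase to its targets, had the largest value of the 10. It ranged from 3.58 to 11.7 CPM with a median of 8.78 in PBS mice and from 6.93 to 21.5 CPM with a median of 15.5 in HsTX1[R14A] mice. Of the treated mice, 6 lay above every PBS mouse and 1 lay below the PBS median, and the difference was 0.94 ± 0.21 (FDR = 0.0151). Arid1a, the defining subunit of the canonical SWI/SNF complex, ranged from 19.7 to 122 CPM with a median of 71.5 in PBS mice and from 41.8 to 153 CPM with a median of 129 in treated mice, and rose by 0.80 ± 0.26 (FDR = 0.0286). Its call was lost without any 1 of 4 mice (FDR 0.0114 to 0.0563, the highest without HsTX1[R14A] male 81). Its alternative, Arid1b, rose by 0.49, and Arid2, the subunit of the polybromo form, by 0.38.

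Arid5a, an RNA-binding member that stabilizes inflammatory messages, had 5.56 CPM (range 4.64 to 7.35) in PBS mice and 7.08 CPM (range 5.49 to 8.65) in HsTX1[R14A] mice, and rose by 0.32 ± 0.08 (FDR = 0.0166). Arid3a (0.40) and Arid4a (0.34) rose too. Arid4b, the paralog of Arid4a in the Sin3 deacetylase complex and the most abundant ARID gene per length (14.2 CPM per kb), had 85.6 CPM (range 73.8 to 94.6) in PBS mice and 79.7 CPM (range 74.9 to 84.2) in HsTX1[R14A] mice. All 9 treated mice lay below the PBS median of Arid4b, within the PBS range, and its difference of -0.08 ± 0.05 did not pass (FDR = 0.191). Arid3b (0.23) and the scarce Arid3c (0.13) did not pass. The calls of the ARID genes other than Arid1a were kept with each mouse left out.

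The lysine demethylases erase methyl marks. Kdm6b, which removes the silencing mark set by Polycomb and is induced in activated macrophages, ranged from 3.41 to 25.2 CPM with a median of 14.4 in PBS mice and from 8.902 to 37.2 CPM with a median of 27.1 in HsTX1[R14A] mice. In 7 of 9 treated mice it lay above the PBS median, and it rose by 0.83 ± 0.29 (FDR = 0.0352). The call was lost without any 1 of 9 mice (FDR 0.0161 to 0.0683, the highest without HsTX1[R14A] female 98). Kdm5b, an eraser of the promoter mark written by COMPASS, had 42.8 CPM (range 25.3 to 53.2) in PBS mice and 55.1 CPM (range 39.3 to 72.8) in HsTX1[R14A] mice and rose by 0.44 ± 0.12 (FDR = 0.01997), a call kept with each mouse left out. Kdm4b (0.56), Kdm2a (0.50), Kdm4a (0.47), Kdm3b (0.37) and Kdm2b (0.32) rose, of which Kdm2b came nearest to the threshold (FDR = 0.0492) and lost its call without any 1 of 16 mice (FDR 0.0163 to 0.0868, the highest without PBS male 90).

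Within families of demethylases, close relatives differed in call. Kdm5a, the paralog of Kdm5b, had a difference of 0.05 ± 0.06, Kdm3a, that of Kdm3b, 0.10 ± 0.07, and Kdm4c, that of Kdm4a and Kdm4b, -0.05 ± 0.05. These differences between paralogs were not tested. Kdm1a, the most abundant demethylase per length (14.9 CPM per kb) and a partner of REST corepressors, had 44.3 CPM (range 37.2 to 49.1) in PBS mice and 48.5 CPM (range 43.2 to 52.95) in HsTX1[R14A] mice. Its difference of 0.13 ± 0.06 did not pass (FDR = 0.0935). Kdm1b (0.08), Kdm8 (0.05), Kdm7a (0.04) and Kdm4d (-0.12) did not pass.

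Crebbp and Ep300 are paired acetyltransferases that activate enhancers, and Crebbp is the coactivator of CREB in memory formation. Crebbp (ENSMUSG00000022521, chr16:4081328-4213997) ranged from 39.5 to 83.8 CPM with a median of 61.6 in PBS mice and from 50.2 to 108 CPM with a median of 97.5 in HsTX1[R14A] mice. The treated mice divided into 6 above every PBS mouse and 3 below the PBS median, and Crebbp rose by 0.45 ± 0.14 (FDR = 0.0249). Its call was lost without HsTX1[R14A] female 98 or male 81 (FDR 0.00945 to 0.0508, the highest without female 98). Ep300 had 44.3 CPM (range 23.2 to 64.00) in PBS mice and 74.3 CPM (range 33.1 to 86.9) in HsTX1[R14A] mice and rose by 0.65 ± 0.17 (FDR = 0.0186). Ep400, an ATPase of the TIP60 complex that exchanges histone variants, had 35.4 CPM (range 13.9 to 61.9) in PBS mice and 63.7 CPM (range 25.6 to 72.1) in HsTX1[R14A] mice and rose by 0.70 ± 0.22 (FDR = 0.0254). The calls of Ep300 and Ep400 were kept with each mouse left out.

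Among the nuclear receptor coactivators, Ncoa5 had the smallest p of the 74 members. It ranged from 23.5 to 35.2 CPM with a median of 30.03 in PBS mice and from 32.2 to 47.9 CPM with a median of 38.5 in HsTX1[R14A] mice. All 9 treated mice lay above the PBS median and 8 of them above every PBS mouse, and Ncoa5 rose by 0.45 ± 0.07 (FDR = 0.0145). Ncoa6, a subunit shared by the Kmt2c and Kmt2d complexes, had 39.7 CPM (range 14.8 to 57.7) in PBS mice and 66.8 CPM (range 29.9 to 97.1) in HsTX1[R14A] mice and rose by 0.72 ± 0.22 (FDR = 0.0232). The p160 coactivators Ncoa1, Ncoa2 and Ncoa3, which bind hormone receptors and recruit Crebbp and Ep300, rose by 0.34, 0.45 and 0.45. Ncoa4, now known as the receptor that delivers ferritin for breakdown and the most abundant of the family per length (20.1 CPM per kb), had 95.2 CPM (range 84.2 to 107) in PBS mice and 92.7 CPM (range 81.7 to 106) in HsTX1[R14A] mice. Neither Ncoa4 (-0.05 ± 0.06) nor Ncoa7 (-0.02 ± 0.05) passed.

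Prr12 (ENSMUSG00000046574, chr7:45027563-45052881), a proline-rich nuclear protein linked to intellectual disability and eye defects, showed the largest difference of the set. It ranged from 4.896 to 66.5 CPM with a median of 24.3 in PBS mice and from 10.01 to 92.6 CPM with a median of 72.5 in HsTX1[R14A] mice. Of the treated mice, 5 lay above every PBS mouse and 1, male 93, below the PBS median. Prr12 rose by 1.31 ± 0.38 on the log2 scale (FDR = 0.0221), or 2.47-fold, and the call was kept with each mouse left out (FDR 0.00851 to 0.0445).

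Of the 44 calls, 27 were kept with each mouse left out in turn, 17 were lost without at least 1 mouse, and none changed sign. Leaving out PBS male 90 or HsTX1[R14A] female 98 brought the number of called members to 28, and leaving out HsTX1[R14A] male 81 to 29. Each of the 3 ended 16 calls. HsTX1[R14A] males 88 and 74 ended 14 and 11, PBS male 101 and HsTX1[R14A] female 72 ended 10 each, HsTX1[R14A] female 71 ended 9 and PBS female 73 ended 8. PBS male 91 ended 4, PBS females 105 and 85 ended 3 each, PBS female 103 and HsTX1[R14A] male 89 ended 2 each, and PBS female 104, PBS male 82 and HsTX1[R14A] male 92 ended 1 each. Without HsTX1[R14A] male 93, 50 members were called. The share of all genes called in these fits is not given here, so the counts do not show whether such shifts are particular to the members. Calls among the other chromatin regulators described below also moved, from 26 to 71 with 1 mouse left out. The members that lost a call were Arid1a, Chd3, Chd4, Crebbp, Kdm2b, Kdm3b, Kdm4a, Kdm6b, Kmt2a, Kmt2b, Kmt2c, Kmt2d, Ncoa1, Ncoa3, Setd2, Setd3 and Setd5.

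The level of the members as a whole differed from mouse to mouse. The mean over the 74 genes of log2 CPM, centered on each gene's mean over the 21 mice, lay between -0.73 and 0.22 in PBS mice, with a median of -0.06. In HsTX1[R14A] mice it lay between -0.29 and 0.44 and its median was 0.31. The groups overlapped. PBS female 103 (-0.73) and PBS male 90 (-0.57) were the lowest, HsTX1[R14A] female 98 (0.44) and male 81 (0.38) the highest, and HsTX1[R14A] male 93 (-0.29) lay below 9 of the 12 PBS mice. Female 98 held the highest level of 24 members and male 81 of 21. With PBS mice 103 and 90 both left out, which was chosen after seeing the data, 37 members were called (17.7% of all genes), all 37 also called with them, and the median log2 fold change was 0.30.

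The mice at either end of this range were also at the ends of another measure, how counts depended on transcript length. Within a library, gene levels (log2 CPM minus the gene's mean) were fitted by a straight line on the log2 of transcript length, and the slope of that line is the length slope of the library. Slopes ran from -0.38 to 0.15 in PBS mice and from -0.14 to 0.23 in HsTX1[R14A] mice. They were lowest in PBS mice 103 (-0.38) and 90 (-0.34) and highest in HsTX1[R14A] mice 98 (0.23) and 81 (0.20). The slope is computed over all genes with a length, the members among them, and the members are long: their median transcript was 6570.5 bases, against 3283.5 over all genes tested.

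**Figure D3:**
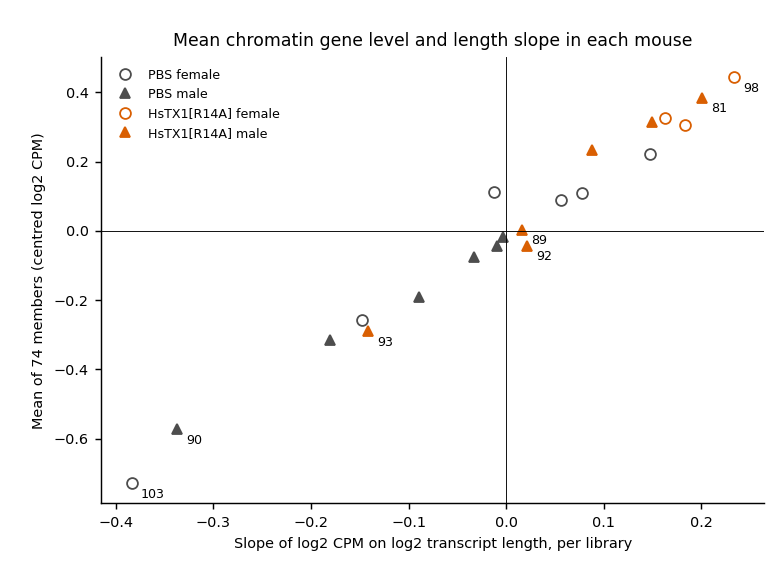
Mean level of the 74 members in each mouse (vertical axis, centered log2 CPM) against the length slope of its library (horizontal axis, log2 CPM per log2 of transcript length), with 1 point per mouse, grey for PBS, orange for HsTX1[R14A], open circles for females and triangles for males. The points run from PBS female 103 at a slope of -0.38 and a mean of -0.73 to HsTX1[R14A] female 98 at 0.23 and 0.44. The lowest slopes are those of PBS mice 103, 90, 101 and 73 and the highest those of HsTX1[R14A] mice 98, 81, 71, 72 and 88. Between these, PBS and HsTX1[R14A] mice are interleaved.

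The calls were also unevenly spread over length. Of 26 members with transcripts under 5 kb, 5 (19.2%) were called higher, beside 10.2% of all genes of that length. Of 25 members of 5 kb or more with a GC content under 50%, 16 (64%) were called higher, beside 26.6% of all such genes, and of 23 members of 5 kb or more with at least 50% GC, 21 (91.3%), beside 49.3% of all such genes. The rank correlation between log2 fold change and transcript length was 0.65 over the 74 members and 0.51 over the 16224 genes with a length, as a description across genes that share the same libraries. That with GC content was 0.43 and 0.30. Of the 11 members of 5 kb or more that were not called higher, 9 had a GC content under 50%, such as Kdm5a (10944 bases, 43.3%), Kdm7a (9566, 39.6%) and Ncoa7 (7043, 39.6%). The other two were Chd7 (10216 bases, 51.4%) and Setd1a (6487, 57.0%).

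**Figure D4:**
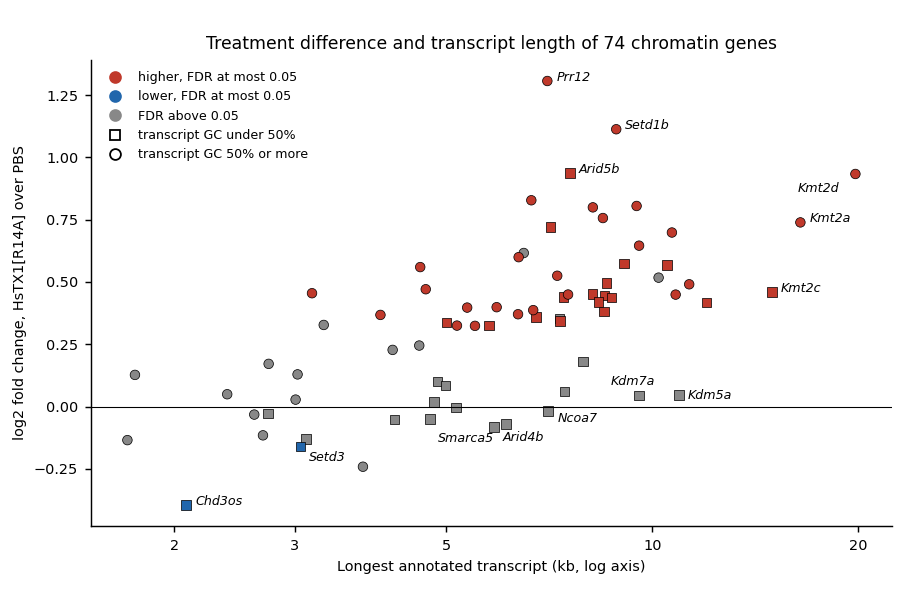
Treatment difference (vertical axis, log2, HsTX1[R14A] over PBS) against the length of the longest annotated transcript in kb (horizontal log axis) for the 74 members, colored by call, with circles for a transcript GC content of 50% or more and squares for less. Of the 26 members under 5 kb 5 are red, and of the 48 longer ones 37 are red, while Smarca5, Arid4b, Ncoa7, Kdm7a and Kdm5a lie near 0.

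When the length slope of each library was added to the model, none of the 74 members was called by edgeR, 5 had an unadjusted p under 0.05, and their median log2 fold change was 0.01. With that term none of the 16303 genes was called and 1865 had an unadjusted p under 0.05. Ncoa5 (0.27), Arid5b (0.28) and Arid5a (0.24) kept a positive value with an unadjusted p under 0.05, and Setd1a (-0.21) and Kmt2b (-0.21) took a negative one. When instead the trend of each library over length and GC content was removed, 17 members were called, all higher, with a median of 0.08, while 15.4% of all genes were called. Arid5b (0.69, FDR = 0.00861), Prr12 (0.67, FDR = 0.0212), Setd1b (0.47, FDR = 0.0183), Ncoa6 (0.42, FDR = 0.0298) and Ncoa5 (0.33, FDR = 0.00536) were among them. Kmt2d (0.07, FDR = 0.544) and Crebbp (-0.11, FDR = 0.444) were not. Some members whose calls were kept with each mouse left out were not called here either. Among these were Arid1b (-0.11, FDR = 0.443), Arid5a (-0.08, FDR = 0.700) and Smarca2 (0.09, FDR = 0.301). Because the slopes were on average higher in treated mice, a change of long genes and a difference between libraries in the recovery of long transcripts cannot be told apart.

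Library name form was a second difference between the groups. With it as a term in the model, 20 members were called, 19 higher and 1 lower, while 12.3% of all genes were. Within the 15 mice of the more common form, no member passed and 42 had an unadjusted p under 0.05 by edgeR (35.6% of all genes did), with a median log2 fold change of 0.38. Within the 6 mice of the other form, none passed and 4 had an unadjusted p under 0.05 (3.29% of all genes), with a median of 0.24. Values were positive for 57 of the 74 members in each. Setd1b was 1.23 in the first and 0.71 in the second, Prr12 1.51 and 0.62, and Ncoa5 0.43 and 0.38.

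Females and males were compared in the same model. No member differed between the sexes at an FDR of 0.05 by edgeR, DESeq2 or limma/voom, and 9 genes (0.0552%) did so over the whole table by edgeR. Of the 74 members, 11 had an unadjusted p under 0.05, beside 10.8% of all genes. That count was 43 without PBS female 103, 4 without PBS male 90 and 34 without both, and ran from 5 to 19 with any other mouse left out. The share of all genes in these fits is not given here, so the counts do not show whether such shifts are particular to the members. In the model of all mice 65 members had a value above 0, and the median log2 fold change of female over male was 0.18. Arid5a had the smallest p, at 6.85 ± 1.18 CPM in females (SD, n = 9) and 5.88 ± 0.909 CPM in males (SD, n = 12), with a difference of 0.27 ± 0.08 and an edgeR FDR of 0.446. Setd3 came next with -0.16 ± 0.06 (edgeR FDR = 0.446). In the edgeR test of a treatment by sex interaction no member was called and none had an unadjusted p under 0.05, against 270 genes (1.66%) over the table.

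Fitted alone, the 9 females and the 12 males gave medians of 0.39 and 0.36 over the members, with 59 and 60 values above 0. In neither was a member called by edgeR, and 25 and 35 members had an unadjusted p under 0.05 (20.4% and 27.6% of all genes). Prr12 was 1.37 in females and 1.27 in males, Setd1b 1.23 and 1.04, and Kmt2d 1.19 and 0.76. The members that came nearest to a treatment by sex interaction were Smarce1 (-0.25 in females and -0.05 in males, edgeR FDR = 0.99996) and Chd1l (0.14 and -0.04, edgeR FDR = 0.99996). The SE of the interaction of Kmt2d was 0.67 on the log2 scale, larger than its value of 0.43, so that a difference between sexes of that size was not detectable with 3 treated females.

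**Figure D5:**
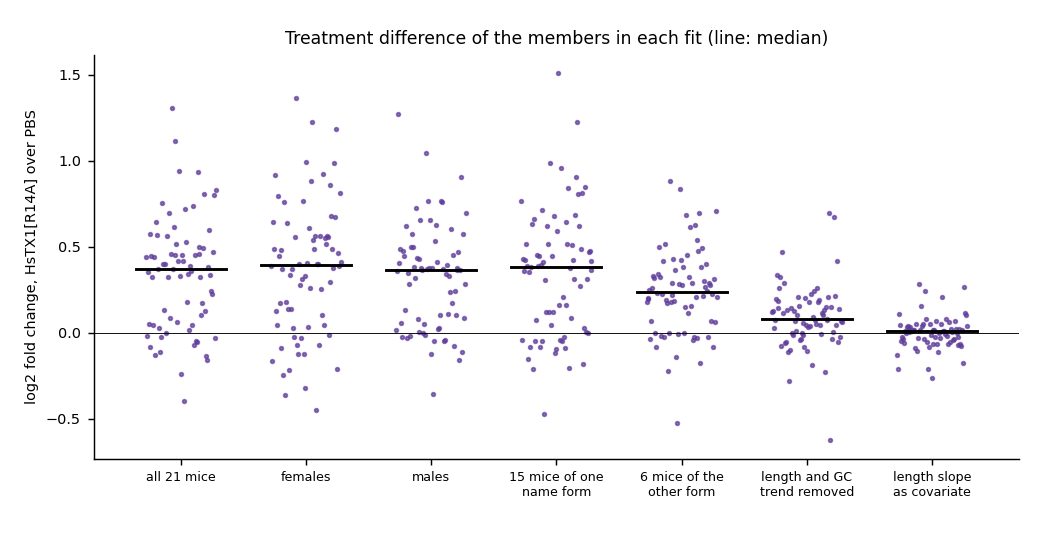
Treatment difference (vertical axis, log2, HsTX1[R14A] over PBS) of the members in 7 fits (1 point per gene, horizontal line for the median): all 21 mice, females, males, the mice of either library name form, the length and GC trend of each library removed, and the length slope as a covariate. The medians are 0.37, 0.39, 0.36, 0.38, 0.24, 0.08 and 0.01, and the points close around 0 in the last fit.

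Other chromatin regulators, in 11 lists of 155 tested genes that share no gene with the 74, were counted in the same fit. Genes are counted by gene identifier, and Pagr1a and Srcap have more than 1 each. Hdac1, Hdac2, Rbbp4 and Rbbp7 stand in more than 1 list and count once among the 155. Rbbp4, called lower, is among the falls of both the NuRD partners and the Polycomb genes. Of them 38 were called higher and 19 lower, where 15.5% of all genes tested were called higher and 16.1% lower. The median log2 fold change of the 155 was 0.11. Of the partners of ISWI 4 of 9 rose and 1 fell (Bptf 0.61 ± 0.17, FDR = 0.0193, and Baz1b 0.46 ± 0.13, FDR = 0.0193), and 5 of 13 DNA methylation genes and readers rose (Dnmt1 0.62 ± 0.19, FDR = 0.0259, and Tet1 0.45 ± 0.13, FDR = 0.0212). Both lists hold long transcripts, with medians of 7895 and 5870 bases. Among other histone methyltransferases 7 of 24 rose and 1 fell (Ezh1 0.36 ± 0.09, FDR = 0.01703, and Whsc1l1 0.29 ± 0.08, FDR = 0.0195). Of the other acetyltransferases 3 of 8 rose and 1 fell (Kat7 0.29 ± 0.07, FDR = 0.0163, and Kat6a 0.61 ± 0.18, FDR = 0.0237).

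The next lists hold subunits that work beside the members, or oppose them. Of the shared subunits of COMPASS, 4 of 13 rose and 1 fell, with Rbbp5 at 0.24 ± 0.06, FDR = 0.0176, and Men1 at 0.45 ± 0.13, FDR = 0.0214. Accessory SWI/SNF subunits rose in 4 of 17 cases and fell in 1, with Dpf2 at 0.33 ± 0.10, FDR = 0.0239, and Ss18l1 at 0.22 ± 0.06, FDR = 0.0192. Partners of Chd3, Chd4 and Chd5 in NuRD rose in 1 case and fell in 4 of 12 (Gatad2b 0.40 ± 0.11, FDR = 0.0201, and Mbd2 -0.25 ± 0.07, FDR = 0.0192). In the INO80, SRCAP and TIP60 complexes, the last of which holds Ep400, 1 of 22 rose and 5 fell (Ino80c -0.42 ± 0.10, FDR = 0.0152, and Mrgbp -0.33 ± 0.09, FDR = 0.0201). Polycomb core genes rose in 4 and fell in 5 of 24 cases (Bmi1 -0.25 ± 0.07, FDR = 0.0187, and Pcgf1 -0.33 ± 0.10, FDR = 0.0259), and of 11 histone deacetylases 1 rose, Hdac4 (0.52 ± 0.12, FDR = 0.0153), and 1 fell, Hdac3 (-0.17 ± 0.05, FDR = 0.0191). The median transcripts of these 6 lists lay between 2980.5 and 3901 bases. The same fit called 15.5% of all genes higher and 16.1% lower. Whether the members differ from these lists was not tested.

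Markers of brain cell types were measured beside the members, in a fit that called 15.5% of all genes higher and 16.1% lower. Of 10 neuron markers 1 rose (Syt1, 0.31 ± 0.11, FDR = 0.0349) and their summed level was 4923 to 7527 CPM in PBS mice and 5690.3 to 8541 CPM in HsTX1[R14A] mice. Astrocyte markers fell in 4 of 8 cases (S100b -0.72 ± 0.17, FDR = 0.0152, and Gfap -0.59 ± 0.20, FDR = 0.0312), with sums of 3331 to 4986 CPM in PBS mice and 3339 to 5038 CPM in HsTX1[R14A] mice. Oligodendrocyte markers fell in 4 of 8 (Opalin -0.99 ± 0.15, FDR = 0.0145, and Mobp -0.67 ± 0.12, FDR = 0.0145), with 4396 to 6728 CPM in PBS mice and 3315 to 4907 CPM in HsTX1[R14A] mice, and microglia markers in 3 of 8 (C1qb -0.43 ± 0.09, FDR = 0.0151, and P2ry12 -0.65 ± 0.14, FDR = 0.0151), with 395 to 581 CPM in PBS mice and 332 to 498 CPM in HsTX1[R14A] mice. Of 7 endothelial markers 1 rose (Flt1 0.64 ± 0.18, FDR = 0.0191), with sums of 69.8 to 129.7 CPM in PBS mice and 84.2 to 146 CPM in HsTX1[R14A] mice. Of the 7 choroid plexus, 5 erythrocyte and 6 nuclear long noncoding RNA genes none was called by edgeR, and 1, 0 and 1 of them had an unadjusted p under 0.05. Of the erythrocyte genes Hba-a2 was at 0 in at least 1 mouse, and no other marker was at 0 in any. Sums were 69.5 to 1129.6 CPM in PBS mice and 58.6 to 834 CPM in HsTX1[R14A] mice for choroid plexus, 5.82 to 157 CPM in PBS mice and 15.1 to 87.6 CPM in HsTX1[R14A] mice for erythrocytes and 4025 to 7909 CPM in PBS mice and 4095 to 9327 CPM in HsTX1[R14A] mice for the nuclear RNAs. Of 13 mitochondrially encoded mRNAs 12 fell (mt-Co2 -1.04 ± 0.21, FDR = 0.0151, and mt-Co1 -0.85 ± 0.18, FDR = 0.0151), with sums of 70622 to 185950 CPM in PBS mice and 56303 to 108742 CPM in HsTX1[R14A] mice. The groups overlapped in each of these sums, and none of the neuron, astrocyte, oligodendrocyte, microglia or endothelial markers was at 0 in any mouse. The part of these genes in the differences of the members was not tested.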

How the data were processed

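RNA from 21 whole brains was sequenced by the authors, 1 library per mouse. Per their methods and the submitters' processing notes, reads were aligned to GRCm38 (mm10) with STAR in the nf-core/rnaseq pipeline, version 3.2, and genes were quantified with Salmon. The authors deposited estimated counts for 16318 genes, not normalized, of which 90.496% lay within 0.01 of a whole number, and these were rounded to whole numbers here. The authors' columns of fold changes, p-values and FDR were not used, nor were 53 other per-sample columns (37 of CPM and 16 of counts). The labels and the study's methods name different library kits, and the strand setting of the counting is not given in the sources used here, so Kdm1a, Kdm1b, Kdm2b, Kdm5a, Smarcc1, Smarcd3, Kmt2e, Ncoa3, Arid3c, Arid4b and Setd7, which overlap genes on the other strand, and Chd2 and Ncoa7, which overlap genes on their own, are less certain.

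Groups came from the sample labels. Of these genes 16303 passed filterByExpr. After TMM scaling they entered edgeR's quasi-likelihood test (edgeR 4.0.16 in R 4.3.3, glmQLFit followed by glmQLFTest), in a model of sex plus treatment. FDR is the Benjamini-Hochberg adjusted p over all genes, with a threshold of 0.05, and SE was obtained as the absolute log2 fold change over the root of the F statistic. Each library is 1 mouse, and the spread between mice sets the precision. Transcript length and GC content are those of the longest GENCODE transcript on GRCm38. Log2 CPM carries a prior count of 2. The procedure was tested on simulated counts that held no length trend, name form or sex effect between libraries. That test therefore says nothing about how these differences affect the calls.

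The members, the lists and the tests were chosen with earlier results of these data known. Genes named with full values were members of a mean level of 1 log2 CPM or more that were among the 10 with the largest or the 6 with the most negative change of those called, had the smallest p or the highest level per length in their role, or had 1 of the 2 smallest p-values for sex or interaction, and Crebbp, Ep300, Ep400 and Prr12. In the other chromatin lists the 2 genes with the smallest p were named, and in marker lists those of the 2 that were called. The result of 1 of the chromatin lists is not reported here. Further members are given with a single value to account for the whole set. Alternatives were limma/voom (limma 3.58.1), DESeq2 1.42.0, RLE scaling, no filter, a minimum of 10 counts per mouse, a model without sex, library name form as covariate, length slope as covariate, removal of the loess trend (span 0.5) on length and GC content, each sex or name form alone, and leaving out 1 mouse at a time.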

Additional observations from a re-analysis of the deposited data

Results flagged for a closer look

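In each group of 4 to 10 mice of 1 treatment and sex, the highest and the lowest level of each named member and 2 summary measures were compared with the nearest other mouse. Of 93 groups tested, 4 held a mouse that stood apart by Dixon's criterion, and chance alone marks about 1 in 20 groups. Smarcc1 was 33.58 CPM in PBS male 90, where the other PBS males ran from 45.88 to 52.35 CPM. Ncoa5 was 24.13 CPM in PBS female 103, where the other PBS females ran from 31.12 to 35.2 CPM. Both are the PBS mice of lowest length slope, and both values are low in genes that rose with treatment. Arid5a was 6.785 CPM in PBS male 82, above the 4.645 to 5.209 CPM of the other PBS males. Smarce1 was 72.25 CPM in HsTX1[R14A] male 81, above the 58.46 to 60.74 CPM of the other treated males, and that mouse also had the second highest mean level of all members. The cause of these values was not tested.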

How the results depend on the processing

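The 44 calls among the members became 43 with limma/voom, 48 with DESeq2, 45 with RLE scaling, and 44 with no filter or at least 10 counts in every mouse. They became 27 without the sex term, 20 with the name form, 17 with the length and GC trend removed, and 0 with the length slope, in females, in males and in either name form (5, 25, 35, 42 and 4 members with an unadjusted p under 0.05 by edgeR for slope, females, males, the common form and the other form). With 1 mouse left out they ran from 28 to 50, for which the share of all genes is not given here. The median log2 fold change of the members, 0.369, became 0.0073 with the slope and 0.0766 with the trend removed. Calls in the other chromatin lists, 57 of 155 genes, became 28 without the sex term (18.3% of all genes), 22 with the name form (12.3%) and 22 with the trend removed (15.4%). They became 0 with the slope, in females, in males and in either name form. An unadjusted p under 0.05 by edgeR was reached by 21 of these genes with the slope, 28 in females, 49 in males, 59 in the common form and 7 in the other form. Over all genes the shares were 11.4%, 20.4%, 27.6%, 35.6% and 3.29%. The share of all genes with 1 mouse left out is not given here. With 1 mouse left out the calls in these lists ran from 26 (without PBS male 90) to 71. They were 29 without HsTX1[R14A] female 98 or male 88, 34 without male 81 and 35 without female 72. Separate sexes and name forms hold fewer mice, and the cause of the other changes was not tested. With the slope as a covariate the sign turned for 32 of the 74 members, 15 of them called, and among genes named by rule for Kmt2b (-0.2094), Kmt2d (-0.1331), Smarcc2 (-0.1145), Kdm6b (-0.1066), Arid1a (-0.0682), Kmt2a (-0.0292), Chd3 (-0.0233), Ep400 (-0.0154), Ncoa6 (-0.0010) and Ncoa4 (0.0122). With the trend removed it turned for 15 members, 6 of them called, and among genes named by rule for Crebbp (-0.1131), Arid5a (-0.0823), Smarcc2 (-0.0386), Chd1l (-0.0023) and Smarce1 (0.1154). Chd1l was also below 0 in males (-0.0432) and in the other name form (-0.0006). No paired analysis was possible because no mouse number is shared between the groups.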
